A study of Mus musculus with 6 samples.

Results

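Alpha and beta tubulin are the paired subunits of microtubules, and in the mouse each is made from several genes, the isotypes. The set described here holds 10 of them, 4 alpha genes (Tuba1a, Tuba1b, Tuba1c and Tuba4a) and 6 beta genes (Tubb2a, Tubb2b, Tubb3, Tubb4b, Tubb5 and Tubb6), out of 51912 genes in the count table. They were chosen by symbol, each from the row whose Ensembl ID carries that symbol in GENCODE release M21. RNA came from primary osteoblasts, the bone-forming cells, of C57BL/6J mice. The cells were taken from the calvaria, the skull cap, of Mark3 flox/flox pups at 1 d of age and exposed for 24 h to an adenovirus. In 3 libraries, labelled WT, the virus carried GFP, and in 3 libraries, labelled Mark3-KO, it carried the Cre recombinase, which removes the floxed part of Mark3. Both groups thus carried floxed Mark3 and a virus, and Cre and the loss of Mark3 cannot be told apart. Whether replicates were grown from different litters or in different dishes is not in the labels, so the p-values here reflect the spread among these 6 libraries alone, and that spread may be technical.

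Microtubules grow by adding dimers of an alpha and a beta subunit, and MARK kinases such as Mark3 phosphorylate proteins that bind along them. Isotypes of one class differ mostly in the acidic tail at their carboxy terminus, where binding proteins and modifying enzymes act. Cells also tune tubulin messages to the pool of free dimers. When that pool grows, the factor TTC5 recognises the amino-terminal tetrapeptide as it leaves the ribosome, and SCAPER and the CCR4-NOT deadenylase then bring about decay of the message. Tubb3 is best known as a marker of neurons, Tubb2b from the developing brain, and Tubb5, Tubb4b and Tuba1b from dividing cells of many tissues.

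The start of the coding sequence, which encodes that tetrapeptide, is shown for a few isotypes because it is the part of the message read in the autoregulation described above. The first 30 coding bases, 5′ to 3′, come from the GENCODE M21 transcripts (GRCm38), with the first 4 codons in capitals.
Tuba1a: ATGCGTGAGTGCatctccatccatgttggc
Tuba4a: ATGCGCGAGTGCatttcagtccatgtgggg
Tubb5: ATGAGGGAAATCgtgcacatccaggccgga
Tubb2b: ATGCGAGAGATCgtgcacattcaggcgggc
Tubb3: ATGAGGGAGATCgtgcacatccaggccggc
Tuba1b and Tuba1c carry the same 4 codons as Tuba1a. Tuba4a differs from them in the bases of these codons but encodes the same tetrapeptide. The beta isotypes shown differ among themselves in bases alone, and from the alpha isotypes also in the last residue of the tetrapeptide.

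The last 60 coding bases, ending with the stop codon, encode the tail in which isotypes differ most. They are shown for 4 beta isotypes, among them the near-identical pair Tubb2a and Tubb2b, which differ here in bases alone and encode the same residues.
Tubb2a: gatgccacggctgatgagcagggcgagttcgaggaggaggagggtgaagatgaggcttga
Tubb2b: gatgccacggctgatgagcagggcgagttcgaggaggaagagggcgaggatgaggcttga
Tubb3: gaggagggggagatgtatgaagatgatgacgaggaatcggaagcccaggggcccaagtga
Tubb5: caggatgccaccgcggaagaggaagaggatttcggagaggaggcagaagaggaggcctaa
Tuba1a and Tuba1b have coding sequences that are 98.3% identical, and Tuba1c is 97.1% identical to Tuba1a and 97.9% to Tuba1b. Tubb2a and Tubb2b are 96.5% identical and share an unbroken run of 551 bases. Other pairs within the alpha class lie between 84.7 and 85.3%, and other beta pairs between 80.3 and 85.9%. Of all windows of 100 bases in the longest transcript, 38.4% for Tuba1a, 52.3% for Tuba1b, 53.4% for Tuba1c, 35.9% for Tubb2a and 26.1% for Tubb2b occur unchanged in another of the 10 isotypes, against 0% for the remaining 5. How reads that match several genes were counted is not given in the sources used here, so the division of counts within Tuba1a, Tuba1b and Tuba1c, and between Tubb2a and Tubb2b, is uncertain. Their sums in CPM, which do not depend on this division, are given below beside the single genes. If reads that match several genes were left out, these sums would lack them too. The order of levels, the shares and the alpha to beta ratio would then be affected as well. Because levels per kb use the length of each gene, they also depend in part on how shared reads were divided. The size of these effects was not tested.

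All 6 libraries were deep, with 56925883 to 71445243 counts, and the 10 isotypes took 0.361 to 0.468% of counts in WT and 0.234 to 0.343% in Mark3-KO. Levels are CPM, a gene's count relative to the TMM-scaled library size, and levels of different genes are compared only per kb of merged exon length. Mark3 itself was at 113, 117 and 117 CPM in the WT libraries and 47.5, 52.3 and 44.1 CPM in the Mark3-KO libraries, and it fell by 1.27 on the log2 scale (SE 0.10, edgeR adjusted p 0.0153). The label osteoblast was checked against 10 markers, all of them detected, among them Col1a1 (13890 ± 7181 CPM, SD, n = 3 WT), Runx2 (71.2 ± 9.85 CPM) and Sp7 (49.9 ± 8.57 CPM). Lowest of the 10 in WT were Ibsp (3.62 ± 0.35 CPM), Bglap2 (1.30 ± 0.31 CPM) and Bglap (0.70 ± 0.31 CPM). The libraries lay along a first principal component that held 65.5% of the variance of log2 CPM, with scores of -90.2, -58.7 and -10.9 for WT replicates 1, 2 and 3 and 15.7, 60.2 and 83.8 for Mark3-KO replicates 1, 2 and 3. WT replicate 3 and Mark3-KO replicate 1 were therefore nearest to each other, across groups.

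Every isotype was lower in each Mark3-KO library than in any WT library. With edgeR (quasi-likelihood test, Benjamini-Hochberg adjustment) 0 of 10 passed 0.05, where 0.168% of all 19017 tested genes passed as lower, and the adjusted p of the isotypes lay between 0.0506 and 0.0709. At an unadjusted p below 0.05 all 10 were lower, against 24.8% of tested genes, and non-overlap in this direction held for 27.5% of tested genes. With the DESeq2 Wald test 10 of 10 passed as lower, against 22.2%, and with limma-voom 0 of 10, against 0.105%. The log2 fold changes of Mark3-KO over WT ran from -0.46 for Tuba1a to -1.46 for Tubb3, with a median of -0.90, where the median of all tested genes was 0.02. In bulk RNA, fewer cells of a type and less RNA per cell cannot be told apart. Of 10 osteoblast markers 5 were lower and 1 was higher at an unadjusted p below 0.05, against 24.8% and 20.8% of all tested genes. Their summed level, nearly all of it from the collagen genes Col1a1 and Col1a2, was 19580 to 39680 CPM in the WT libraries against 14090 to 15720 CPM with Cre, while the matrix protein gene Spp1 was at 1177 ± 90.6 and 1487 ± 56.9 CPM (SD, n = 3). The 5 chondrocyte markers, most of their sum from Col2a1, were at 655 to 1712 against 337 to 568 CPM, and the 6 Schwann cell markers, most of their sum from Pmp22, at 129 to 133 against 41.5 to 119 CPM, none of these sums overlapping. Entering the GC correction moved Col1a1 from -1.74 to -0.43 on the log2 scale, Col1a2 from -0.74 to 0.13 and Col2a1 from -1.52 to 0.05. Pmp22 changed little, from -0.60 to -0.625. The part of these markers in the isotype values was not tested.

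**Figure D1:**
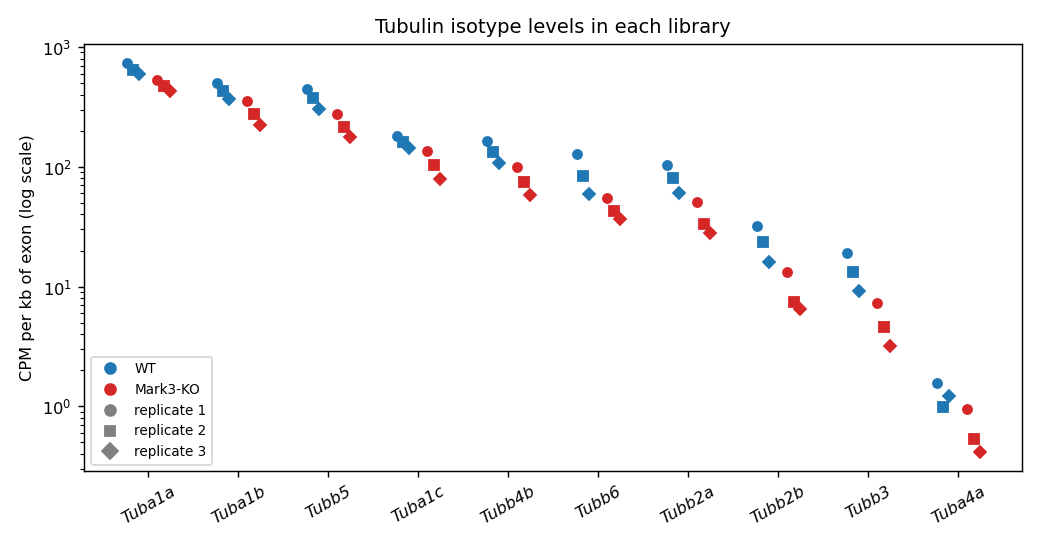
Level of each isotype in each library, in CPM per kb of merged exon on a log axis, with WT in blue and Mark3-KO in red and marker shapes for replicate numbers. Tuba1a, Tuba1b and Tubb5 lie highest and Tuba4a lowest, and within each isotype every red point lies below every blue point, a direction that turns for Tuba1a, Tuba1b and Tuba1c with a GC correction.

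Per kb, Tuba1a was the most abundant isotype at 655 ± 70.4 CPM per kb in WT (SD, n = 3) and 477 ± 51.6 CPM per kb in Mark3-KO. It was followed by Tuba1b at 431 ± 64.4 and 284 ± 64.4 CPM per kb, and by Tubb5, the leading beta isotype, at 375 ± 73.9 and 223 ± 49.7 CPM per kb. The ranges of Tuba1b and Tubb5 overlapped in both groups. Next came Tuba1c (162 ± 18.0 and 106 ± 28.6 CPM per kb), Tubb4b (136 ± 29.0 and 77.6 ± 20.4), Tubb6 (90.2 ± 34.6 and 44.8 ± 9.23) and Tubb2a (81.4 ± 22.1 and 37.5 ± 11.8). Each of these overlapped with its neighbour in this order in WT, and in Mark3-KO all but Tubb4b and Tubb6 did. Tubb2b (24.0 ± 8.04 and 9.06 ± 3.62) and Tubb3 (13.8 ± 4.98 and 5.00 ± 2.08) formed a lower pair whose ranges overlapped, and Tuba4a was near the bottom at 1.26 ± 0.29 and 0.634 ± 0.28 CPM per kb. The order of the 10 means was the same in both groups.

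Among alpha isotypes, Tuba1a, on chromosome 15 (98949837 to 98953703, minus strand, GRCm38), is a major alpha tubulin of the developing nervous system that is also made in many other cells. It measured 1315, 1164 and 1063 CPM in the WT libraries against 957, 855 and 771 CPM in those with Cre, leaving 72.9% of the WT mean. The lowest WT library and the highest Mark3-KO library lay closer together than the highest and the lowest library of either group. On the log2 scale its change was -0.46 (SE 0.13, edgeR adjusted p 0.0515).

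Tuba1b, also on chromosome 15 (98931425 to 98934565, minus strand), encodes a widely made alpha tubulin. It measured 930, 804 and 689 CPM in the WT libraries against 659, 521 and 418 CPM in those with Cre. Here too WT replicate 3 and Mark3-KO replicate 1 were the closest pair across groups, and the change was -0.60 on the log2 scale (SE 0.19, edgeR adjusted p 0.0613). Tuba1c, on the plus strand of the same chromosome (99029891 to 99038110), measured 412, 371 and 330 CPM in the WT libraries against 312, 237 and 182 CPM in those with Cre, giving -0.61 as log2 fold change (SE 0.20, edgeR adjusted p 0.0670). Summed, which removes the question of how their shared reads were divided among them, Tuba1a, Tuba1b and Tuba1c measured 2657, 2338 and 2082 CPM in the WT libraries against 1927, 1613 and 1371 CPM in those with Cre, or 69.4% of the WT mean. The groups of the sum did not overlap (exact two-sided permutation test p = 0.1, the smallest that 3 against 3 libraries allow).

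Tuba4a (chromosome 1, 75214228 to 75219865, minus strand), the alpha isotype that lacks the terminal tyrosine codon of the others, was rare, with 339, 202 and 305 counts in WT and 258, 119 and 95 counts in Mark3-KO. In CPM these were 5.81, 3.66 and 4.54 against 3.50, 1.995 and 1.54, so that the groups stood apart by a narrow margin (log2 fold change -0.99, SE 0.34, edgeR adjusted p 0.0709). Of its exon bases 1379 are shared with Stk16, a kinase gene on the opposite strand, and since the library kit does not mark strand, reads there cannot be told apart. Stk16 measured 33.6 CPM in the WT libraries against 21.1 CPM in those with Cre on average (log2 fold change -0.67, edgeR adjusted p 0.0744).

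Among beta isotypes, Tubb5 (chromosome 17, 35833921 to 35838306, minus strand), the general beta tubulin of dividing cells, measured 1496, 1246 and 1004 CPM in the WT libraries against 920, 715 and 593 CPM in those with Cre. That left 59.5% of the WT mean, and again WT replicate 3 and Mark3-KO replicate 1 differed by less than the libraries within a group did. On the log2 scale the change was -0.75 (SE 0.21, edgeR adjusted p 0.0515). Tubb4b (chromosome 2, 25222160 to 25224702, minus strand), also made broadly, measured 345, 280 and 225 CPM in the WT libraries against 207, 156 and 122 CPM in those with Cre, giving -0.81 as log2 fold change (SE 0.23, edgeR adjusted p 0.0528). Its pseudogene Tubb4b-ps1 had a mean of 3.25 CPM in the WT libraries against 1.83 CPM in those with Cre (log2 fold change -0.83), few reads beside its parent.

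Tubb2a and Tubb2b lie close together on chromosome 13 (34074274 to 34078007 and 34126748 to 34130466, both minus strand). Tubb2a, a beta tubulin of neurons and many other cells, measured 168, 129 and 96.4 CPM in the WT libraries against 81.6, 53.9 and 45.5 CPM in those with Cre, with a log2 fold change of -1.12 (SE 0.28, edgeR adjusted p 0.0506). Tubb2b measured 73.7, 54.3 and 36.8 CPM in the WT libraries against 30.3, 17.1 and 15.0 CPM in those with Cre, leaving 37.8% of the WT mean (log2 fold change -1.40, SE 0.35, edgeR adjusted p 0.0506). In both genes WT replicate 3 lay nearer to Mark3-KO replicate 1 than to WT replicate 1. Their sum was 241, 183 and 133 CPM in the WT libraries against 112, 70.96 and 60.4 CPM in those with Cre, or 43.6% of the WT mean, without overlap (exact permutation p = 0.1).

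Tubb3 (chromosome 8, 123411424 to 123422015, plus strand) had 36.3% of its WT mean left, the least of the 10, though with the GC correction its log2 fold change was -0.37 and that of Tubb2b, at -1.20, was the largest in size. It measured 35.6, 24.6 and 17.03 CPM in the WT libraries against 13.6, 8.53 and 5.92 CPM in those with Cre, giving -1.46 as log2 fold change (SE 0.38, edgeR adjusted p 0.0506). Since Tubb3 and Tubb2b are known from neurons, 10 neuron markers were measured beside them: their summed level was 19.9 to 23.6 CPM in WT and 21.2 to 23.7 CPM in Mark3-KO, ranges that overlap. The neuronal nuclear protein gene Rbfox3 had 0 counts in every library, and Snap25 and Dcx were each below 0.1 CPM on average in both groups. Map2 gave the largest part of the sum, at 10.2 ± 1.02 and 11.9 ± 1.18 CPM. Of the 7 neuron markers tested, 2 were lower in each Mark3-KO library than in any WT library, against 27.5% of all tested genes. These were the neurofilament genes Nefl (0.411 ± 0.059 and 0.260 ± 0.022 CPM, 15 to 32 counts per library) and Nefm (1.49 ± 0.12 and 1.09 ± 0.21 CPM). On the log2 scale Nefl was at -0.66 with and without the GC correction, while Nefm turned from -0.45 to 0.61 with it. The part of the neuron markers in the Tubb3 values was not tested.

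Tubb6 (chromosome 18, 67390717 to 67402749, plus strand), a beta isotype known from muscle regeneration and from cells outside the nervous system, measured 310, 206 and 143 CPM in the WT libraries against 134, 104 and 89.8 CPM in those with Cre. WT replicate 3 lay close to Mark3-KO replicate 1 and far below WT replicate 1. On the log2 scale the change was -1.01 (SE 0.29, edgeR adjusted p 0.0533), and -0.68 without WT replicate 1. Skeletal muscle markers, 6 in number, summed to 8.16 to 14.4 CPM in WT and 2.86 to 6.02 CPM in Mark3-KO, also without overlap. Their part in the Tubb6 values was not tested, and the myogenic factor gene Myod1 was at 0.114 and 0.027 CPM.

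GC content moved with the groups. The longest transcripts of the 10 isotypes have 51.2 to 57.9% GC, and the 5609 tested genes in that range had a median log2 fold change of -0.56 (quartiles -0.95 and -0.24), with 88.0% of them negative. A GC correction, a spline of GC content fitted to each library and entered in the edgeR fit, brought their median to 0.04. With it the 4 alpha isotypes were at 0.012 (Tuba1a), 0.15 (Tuba1b), 0.26 (Tuba1c) and -0.64 (Tuba4a), so the direction of Tuba1a, Tuba1b and Tuba1c turned, and Tuba1c was then higher at an unadjusted p below 0.05. All 6 beta isotypes stayed negative: -1.20 for Tubb2b (SE 0.29), -0.46 for Tubb5 (SE 0.13), -0.37 for Tubb2a (SE 0.11), -0.37 for Tubb3 (SE 0.14), -0.11 for Tubb4b (SE 0.08) and -0.02 for Tubb6 (SE 0.10). After the correction 0 of 10 passed in edgeR's test (adjusted p 0.0941 to 0.925), where 0.294% of all tested genes passed as lower, and 5 of 10 were lower at an unadjusted p below 0.05 (Tuba4a, Tubb2a, Tubb2b, Tubb3 and Tubb5), against 13.8% of tested genes. Tubb2b, which has the lowest GC content of the 10, moved least, and Tubb3, which has the highest, moved most.

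**Figure D2:**
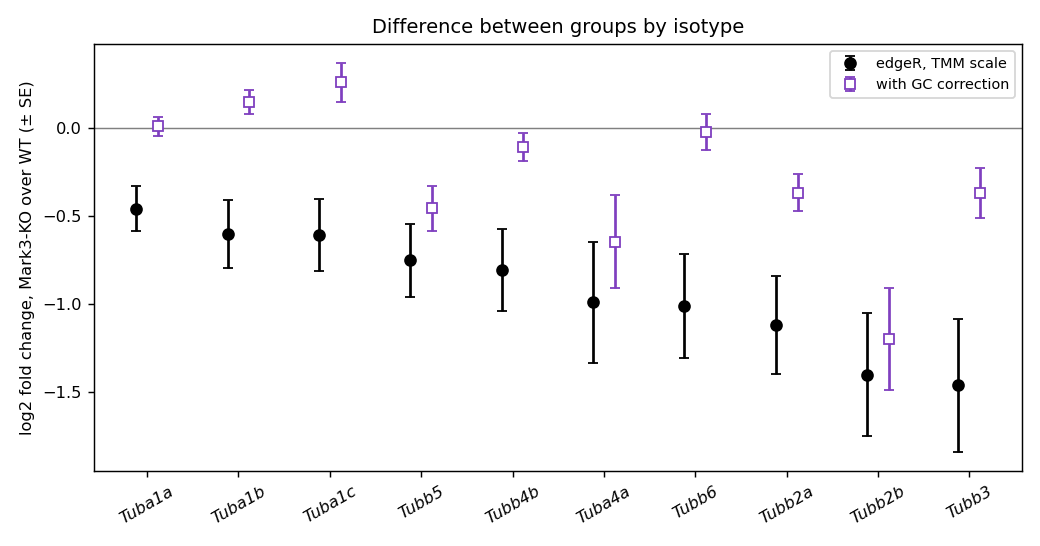
Log2 fold change of Mark3-KO over WT for each isotype with its standard error, from the edgeR fit on the TMM scale (black circles) and with the GC correction (open purple squares). All black circles lie below 0, while with the correction Tuba1a, Tuba1b and Tuba1c lie at or above 0 and Tubb2b stays at -1.20.

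Summed over isotypes, alpha tubulin measured 1407, 1237 and 1102 CPM per kb in WT and 1019, 856 and 730 CPM per kb in Mark3-KO. Beta tubulin measured 897, 710 and 553 CPM per kb in WT and 502, 378 and 312 CPM per kb in Mark3-KO. Neither sum overlapped between groups, and Mark3-KO held 69.6% of the WT mean for alpha and 55.1% for beta (log2 fold changes of -0.53 and -0.86, exact permutation p = 0.1 each). The sum of both classes was at -0.64 on the log2 scale, and at -0.06 with the GC correction (exact permutation p = 0.4), where alpha was at 0.09 and beta at -0.35.

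In WT the ratio of alpha to beta was 1.57, 1.74 and 1.99, and with Cre it was 2.03, 2.27 and 2.35. Every Mark3-KO library was higher than every WT library, though WT replicate 3 and Mark3-KO replicate 1 were close to each other (mean 1.77 ± 0.21 and 2.21 ± 0.16, SD, n = 3; log2 difference 0.33, exact permutation p = 0.1). With the GC correction the log2 difference was 0.43, also without a smaller p being possible (exact permutation p = 0.1). This ratio compares messages within one library and does not depend on how libraries were scaled.

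**Figure D3:**
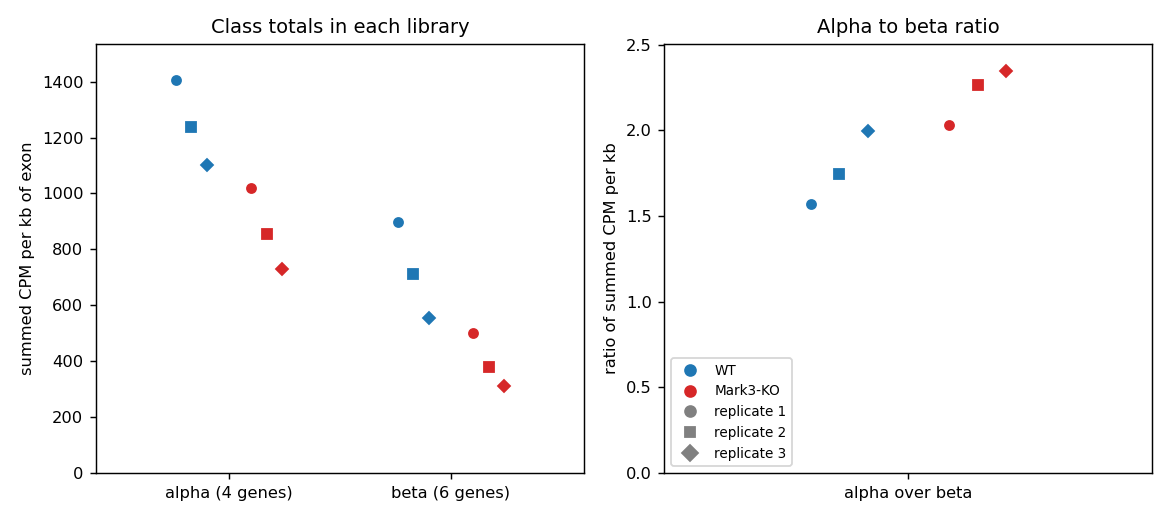
Summed level of the alpha and of the beta isotypes in CPM per kb of merged exon (left) and their ratio (right) in each library, with axes from 0, WT in blue and Mark3-KO in red. Both sums are lower and the ratio is higher in all Mark3-KO libraries, though alpha turns with the GC correction, and WT replicate 3 (blue diamond) and Mark3-KO replicate 1 (red circle) are nearest to each other.

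Isotype shares, in percent of the summed CPM per kb of the class in a library, show how the makeup differed apart from the total. Within alpha tubulin, Tuba1a held 51.8, 52.2 and 53.5% in the WT libraries against 52.1, 55.4 and 58.5% in those with Cre, ranges that overlap (exact permutation p = 0.3, adjusted 0.4 over the 4 isotypes). Tuba1b held 34.4 ± 0.98% in WT and 32.5 ± 1.97% in Mark3-KO (SD, n = 3; exact permutation p = 0.2, adjusted 0.4), Tuba1c 13.0 ± 0.17% and 12.1 ± 1.25% (exact permutation p = 0.4, adjusted 0.4), and Tuba4a 0.101 ± 0.018% and 0.071 ± 0.019% (exact permutation p = 0.2, adjusted 0.4). No alpha share separated the groups. The difference of 2.83 percentage points for Tuba1a was 1.22 when Mark3-KO replicate 3 was dropped and 4.46 when Mark3-KO replicate 1 was. For Tuba1b the difference of -1.93 points was -0.947 and -2.92 without these libraries, and for Tuba1c that of -0.875 was -0.252 and -1.50. With the GC correction all 3 turned, to -2.88, 1.39 and 1.53 points.

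Within beta tubulin, Tubb2a, Tubb2b and Tubb3 took a smaller share in Mark3-KO and Tubb5 a larger one, a direction that turned for Tubb5 with the GC correction. Tubb5 held 50.1, 52.7 and 54.6% in the WT libraries against 55.1, 56.9 and 57.2% in those with Cre. Tubb2a held 11.6, 11.3 and 10.8% in the WT libraries against 10.1, 8.85 and 9.06% in those with Cre. Tubb2b held 3.58, 3.33 and 2.90% in the WT libraries against 2.63, 1.97 and 2.09% in those with Cre. None of these 3 overlapped between groups, and neither did Tubb3, at 2.12, 1.86 and 1.65% in the WT libraries against 1.45, 1.21 and 1.02% in those with Cre. Each of the 4 had the smallest exact permutation p that 3 against 3 libraries allow, 0.1 (adjusted 0.15 over the 6 isotypes). Tubb4b (18.9 ± 0.51% in WT, 19.5 ± 0.57% in Mark3-KO) and Tubb6 (12.2 ± 1.80% and 11.4 ± 0.45%) overlapped between groups, with an exact permutation p of 0.3 (adjusted 0.36) and 0.6 (adjusted 0.6). The difference for Tubb6 was 0.085 points in place of -0.886 without WT replicate 1, and -1.69 without WT replicate 3. For Tubb4b, 0.551 points became 0.308 without WT replicate 1 and 0.879 when Mark3-KO replicate 3 was dropped.

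After the GC correction the mean share of Tubb5 was 56.4% in the WT libraries against 52.3% in those with Cre, the opposite direction. Tubb2b kept its direction, at 3.65 and 2.03%, and its groups still did not overlap. Tubb2a (10.3 and 10.1%) and Tubb3 (1.52 and 1.49%) then overlapped, while Tubb4b (17.7 and 20.8%) and Tubb6 (10.4 and 13.2%) were then higher in all Mark3-KO libraries. Tubb2a and Tubb2b together held 14.5 ± 0.73% of beta tubulin in WT and 11.6 ± 1.02% in Mark3-KO (SD, n = 3, exact permutation p = 0.1). With the GC correction they held 14.0 and 12.2% (exact permutation p = 0.1). Each gene was divided by its own length, so this joint share still depends in part on how their reads were divided. From counts without length, which removes that dependence, the difference was -2.14 percentage points, against -2.94 per kb.

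**Figure D4:**
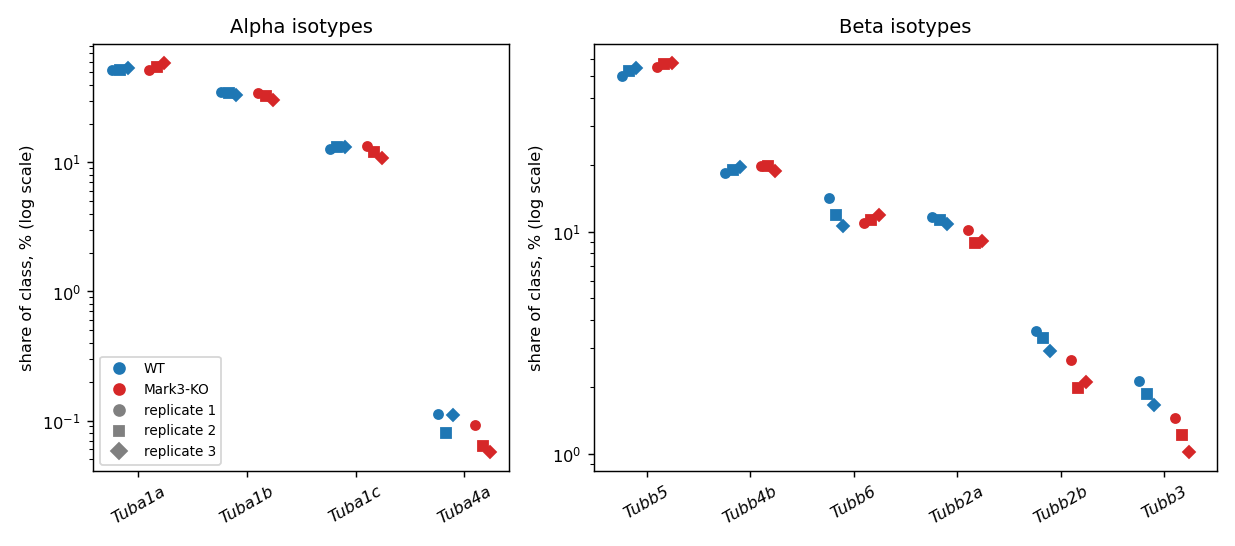
Share of each isotype in the summed CPM per kb of its class, in percent on a log axis, for each library with WT in blue and Mark3-KO in red. The alpha shares overlap between groups, while Tubb2a, Tubb2b and Tubb3 lie lower and Tubb5 higher in every Mark3-KO library, and Tubb5 turns to lower with the GC correction.

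Promoter sequences, from 250 bases before to 50 bases after the annotated start, are shown for the leading alpha and beta isotypes and for Tubb3, whose fold change was the largest in size without the GC correction. They are RefSeq sequences (GRCm38.p6), 5′ to 3′ on the strand of the gene, at chr15:98953452-98953751 (Tuba1a), chr17:35838252-35838551 (Tubb5) and chr8:123411303-123411602 (Tubb3). Capitals mark, on either strand, the letters CCAAT as the core of the promoter element of that name, the letters TATAAA as the core of the TATA box, and the letters GGGCGG as the core of the GC box.
Tuba1a: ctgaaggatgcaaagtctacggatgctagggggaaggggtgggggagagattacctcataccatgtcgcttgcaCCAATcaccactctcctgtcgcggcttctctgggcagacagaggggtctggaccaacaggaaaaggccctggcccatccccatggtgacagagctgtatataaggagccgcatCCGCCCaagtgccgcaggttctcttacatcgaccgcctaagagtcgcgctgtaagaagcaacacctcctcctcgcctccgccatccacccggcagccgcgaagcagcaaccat
Tubb5: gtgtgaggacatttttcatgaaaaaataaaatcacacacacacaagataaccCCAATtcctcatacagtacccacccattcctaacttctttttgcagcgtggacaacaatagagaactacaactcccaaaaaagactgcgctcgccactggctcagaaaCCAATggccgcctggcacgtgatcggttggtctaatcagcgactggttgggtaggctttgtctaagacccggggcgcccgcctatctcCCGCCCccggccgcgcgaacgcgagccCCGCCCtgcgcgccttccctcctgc
Tubb3: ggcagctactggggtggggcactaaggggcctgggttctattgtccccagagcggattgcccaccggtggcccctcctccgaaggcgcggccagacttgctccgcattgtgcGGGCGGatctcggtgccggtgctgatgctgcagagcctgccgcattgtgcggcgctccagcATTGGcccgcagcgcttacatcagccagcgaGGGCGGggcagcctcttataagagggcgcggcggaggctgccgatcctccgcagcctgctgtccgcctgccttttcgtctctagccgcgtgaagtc
The promoter table held 8 of the 10 isotypes, Tubb2b and Tubb6 being the ones without an entry. CCAAT or its reverse was in 5 of the 8 and in 37.4% of all 32851 promoters of this length, GGGCGG in 7 of the 8 and in 35.7%, and TATAAA in 2 of the 8 (Tubb2a and Tubb4b) and in 13.6%. Tubb4b held CCAAT at 5 places. The 8 windows had 53.7% (Tubb4b) to 72.7% (Tuba1b) GC. These matches describe letters and were not tied to the expression values.

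Genes with other roles in making tubulin were read from lists of 7 to 14 genes. None of their members passed in edgeR's quasi-likelihood test after adjustment, while with the DESeq2 Wald test 0 of the other tubulins, 7 of the gamma tubulin ring, 2 of the folding cofactor, 8 of the CCT and prefoldin and 4 of the autoregulation genes passed, where 37% of all genes passed in either direction. The counts that follow are edgeR's at an unadjusted p below 0.05, where 24.8% of all tested genes were lower and 20.8% higher. Of the other alpha, beta, delta and epsilon tubulin genes, 3 of 8 had enough counts to be tested and none was lower or higher. Delta tubulin (Tubd1), a centriole component, measured 9.11 ± 0.55 CPM in the WT libraries against 10.7 ± 0.42 CPM in those with Cre (SD, n = 3), and epsilon tubulin (Tube1) 5.14 ± 0.33 and 4.99 ± 0.51 CPM. Tubb4a, a beta isotype of brain, was at 0.639 ± 0.25 and 0.327 ± 0.13 CPM, and the testis isotype Tuba3a, outside the rule for named genes, had 0 counts in all libraries.

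The gamma tubulin ring complex nucleates microtubules, and 5 of its 10 genes were lower and 3 higher, with a median log2 fold change of -0.31. Tubg1, the main gamma tubulin gene, measured 44.1, 33.3 and 25.6 CPM in the WT libraries against 20.3, 12.1 and 11.1 CPM in those with Cre, giving -1.24 as log2 fold change (SE 0.30, edgeR adjusted p 0.0506) that was -0.23 with the GC correction. Tubg2, the other gamma gene, was at -1.24 and the ring subunit Tubgcp2 at -0.53, with -0.20 and -0.12 after the correction.

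Folding of new tubulin needs the chaperonin CCT, its partner prefoldin and a set of tubulin cofactors. Of the 14 CCT and prefoldin genes 5 were lower and 6 higher, with a median of 0.01. Tcp1, a CCT subunit, measured 392 ± 55.9 CPM in the WT libraries against 548 ± 41.5 CPM in those with Cre, Cct4 266 ± 36.7 and 376 ± 38.8 CPM, and the prefoldin subunit Vbp1 41.2 ± 6.46 and 64.8 ± 8.79 CPM (SD, n = 3). The log2 fold changes of these 3 were 0.49, 0.50 and 0.65, and -0.004, 0.20 and -0.03 with the GC correction. Of the 7 cofactor genes 2 were lower and 2 higher, with a median of -0.22. Tbcb, which acts on alpha tubulin, was at -0.97 (36.5 ± 7.84 and 18.6 ± 7.29 CPM), Tbcc at -0.71 and Tbce, another alpha cofactor, at 0.41, and with the GC correction Tbcb was at -0.13, Tbcc at 0.75 and Tbce at 0.19.

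Of the 12 genes of tubulin message autoregulation 1 was lower and 6 were higher, with a median of 0.26 and of 0.01 with the GC correction. Ttc5, chosen for its role and outside the rule for named genes, measured 20.7, 19.8 and 18.2 CPM in the WT libraries against 17.3, 15.9 and 14.4 CPM in those with Cre (log2 fold change -0.30, edgeR adjusted p 0.111; -0.50 with the GC correction). Scaper, likewise chosen, measured 24.7, 26.7 and 30.6 CPM in the WT libraries against 32.0, 38.5 and 40.2 CPM in those with Cre (0.43, edgeR adjusted p 0.0629), and 0.03 with the GC correction. Both genes had groups that did not overlap, in opposite directions. Among CCR4-NOT subunits, Cnot3 was at -0.63, and the deadenylase genes Cnot6 and Cnot6l were at 0.68 and 0.73, with -0.50, 0.13 and 0.12 after the correction.

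The 5 protein coding genes most like Tuba1a across the 6 libraries, by Pearson correlation of log2(CPM + 0.5), were Tnip1, Trp53i11, Dctn6, Hspb1 and Mgat1, with r from 0.9995 to 0.9999. Those most like Tubb5 were Ssc5d, Ap1s1, Eif3i, Rab1b and Dnmbp, with r from 0.9995 to 0.9998. Such values were common: 26.3% of the 8946 genes compared had r above 0.95 with Tuba1a, and likewise 26.3% with Tubb5. The libraries share the order along the first principal component, and these correlations describe 6 libraries. Among the isotypes themselves, r with Tubb5 ran from 0.933 for Tuba4a to 0.9995 for Tubb3.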

How the data were processed

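The authors deposited whole-number counts per gene in 1 table of 6 libraries. The build GRCm38 and the tools HISAT2 2.0.5, StringTie, FastQC and DESeq2 come from the submitters' processing notes. Their settings, the annotation and the treatment of reads matching several genes are not given in the sources used here. Per the labels' protocols, libraries were made from Trizol RNA with a TruSeq kit that does not mark strand. GENCODE M21 gave symbols for 51719 of 51912 IDs, exon lengths and transcript GC content.

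Genes kept by filterByExpr (19017) were tested together with edgeR 4.0.16 (R 4.3.3), using TMM scaling, the quasi-likelihood test and Benjamini-Hochberg adjustment at 0.05. Standard errors were obtained by dividing each log2 fold change by the root of its F statistic. Shares and sums were compared by exact two-sided permutation over libraries, which cannot go below 0.1. The members and lists were chosen with earlier results of these data known. The text names the 10 isotypes and Mark3. It also names the 3 members of each gene list with the smallest p and the 5 genes most like the leading isotype of each class, among those with at least 10 CPM. Genes outside this rule are marked, and 1 gene that it names is not reported here. Cell type markers, and genes that overlap an isotype or are its pseudogene, are named as checks.

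Alternatives were scaling by library size alone or by DESeq2 size factors, the DESeq2 1.42.0 Wald test, limma-voom 3.58.1, 2 other count filters, a replicate block, a GC correction (natural spline with 6 degrees of freedom per library), other gene lengths, added pseudogene counts, and leaving out each library. Sums over near-identical genes were added after seeing the data. The edgeR fit with TMM scaling was tested on simulated data, with and without the replicate block, and the other alternatives were not.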

Additional observations from a re-analysis of the deposited data

How the results depend on the processing

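The number of isotypes that passed depended on the setting, and 4707 genes had an edgeR adjusted p below 0.055. Against 0 of 10, it was 3 with library size alone, 7 with a filter of 1 CPM in 3 libraries, 10 with the DESeq2 Wald test and 0 to 10 with a library left out (8 without WT replicate 3 and 10 without Mark3-KO replicate 1). Of all tested genes 12.2% passed as lower with library size alone, 21.3% with the 1 CPM filter, 20.1% without WT replicate 3 and 19.98% without Mark3-KO replicate 1. Whether the replicate numbers pair the libraries is not in the labels. Deviations from the group means correlated at 0.33, -0.03 and 0.29 for numbers 1, 2 and 3, and at 0.11, -0.03 and 0.08 with the GC correction. Numbers 1 and 3 gave the highest values of all pairs, while WT replicate 2 correlated more with Mark3-KO replicate 1 (0.06). Because the libraries of both groups lie along a shared order, these correlations cannot decide whether they are paired. With the replicate block 10 isotypes passed (24.7% of all genes passed as lower), and 3 with block and GC correction together (5.62%). Of 86 other list genes 0 passed, against 27 with library size alone (23.8% of all genes in either direction), 34 of 85 with 1 CPM (37.4%), 40 with the DESeq2 Wald test (37%), 59 with the replicate block (44.6%), 9 with block and GC correction (8.37%), and 0 to 45 with a library left out (45 without WT replicate 3, 32.9%). The cause of these changes was not tested.

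Log2 fold changes of all 10 isotypes stayed negative in 13 of 15 alternatives. Those that turned did so with the GC correction, alone and with the replicate block: Tuba1a to 0.012 and 0.011, Tuba1b to 0.15 and 0.15, and Tuba1c to 0.26 and 0.27. The GC correction also turned summed alpha tubulin (0.089) and the shares of Tuba1a (-2.88 points), Tuba1b (1.39), Tuba1c (1.53), Tubb5 (-4.07) and Tubb6 (2.78). With a library left out the Tubb6 share difference ran from -1.69 to 0.085 points. Over all alternatives Tubb2b stayed between -1.78 and -1.14 on the log2 scale and its share difference between -1.63 and -0.884 points, and the log2 alpha to beta ratio differed by 0.25 to 0.43. Library size alone moved the median of all genes from 0.02 to 0.13.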

Other observations

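Enzymes that modify tubulin were also measured, as a list of 19 genes of which 18 were tested. In edgeR's quasi-likelihood test 0 passed after adjustment. At an unadjusted p below 0.05, 10 were lower and 2 higher, where 24.8% of all tested genes were lower and 20.8% higher. The median log2 fold change was -0.38, or -0.02 with the GC correction. With the DESeq2 Wald test 8 passed, where 37% of all genes passed in either direction. Vash2, which removes the terminal tyrosine of alpha tubulin together with its partner Svbp, measured 28.4, 27.1 and 26.7 CPM in the WT libraries against 19.0, 18.0 and 18.9 CPM in those with Cre. Unlike the isotypes, it was even within each group and showed no approach of WT replicate 3 to Mark3-KO replicate 1 (log2 fold change -0.56, SE 0.10, edgeR adjusted p 0.0506; -0.33 with the GC correction). Its relative Vash1 measured 1.47 ± 0.23 and 0.527 ± 0.15 CPM (-1.47, and -0.02 with the correction). Ttll12 measured 65.4, 51.8 and 15.0 CPM in the WT libraries against 12.4, 7.64 and 5.07 CPM in those with Cre, with WT replicate 3 near the Mark3-KO libraries.

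Of 10 genes that sequester tubulin or sever microtubules, 8 were tested, 0 passed in edgeR's test after adjustment, and 1 was lower and 2 higher at an unadjusted p below 0.05 (2 passed with the DESeq2 Wald test, against 37% of all genes). Fignl1 measured 23.3 ± 3.52 CPM in the WT libraries against 36.0 ± 3.67 CPM in those with Cre, and the spastin gene Spast 51.1 ± 7.07 against 66.8 ± 8.32 CPM (SD, n = 3). Their log2 fold changes were 0.63 and 0.39, and 0.17 and 0.003 with the GC correction. Cell cycle markers were mixed. Of 14 genes 7 were higher and 3 lower at an unadjusted p below 0.05, against 20.8% and 24.8% of all tested genes. Their median log2 fold change was 0.23, or 0.03 with the GC correction. In edgeR's test 0 passed after adjustment, and 9 passed with the DESeq2 Wald test, against 37% of all genes. Their summed level, most of it from Mki67 and Top2a, was 1549 to 1844 CPM in the WT libraries against 2096 to 2254 CPM in those with Cre. The lower genes, named after their values were seen, were the mitotic kinase genes Plk1 (-0.87) and Aurka (-0.33) and the replication licensing gene Mcm2 (-0.76), at 0.02, -0.11 and -0.49 with the GC correction. Top2a, the DNA topoisomerase of dividing cells, measured 340, 378 and 442 CPM in the WT libraries against 516, 573 and 602 CPM in those with Cre (0.54 as log2 fold change, 0.16 after GC correction), and the spindle checkpoint kinase Bub1 and the centromere protein gene Cenpf were at 0.65 and 0.68 (0.16 and 0.28 with the correction).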
